A study of Homo sapiens with 6 samples.

Results

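The second hairpin against CBX8, shCBX8-2, was compared with the control hairpin in A549 cells, a human lung adenocarcinoma line with epithelial features. CBX8 is a chromobox subunit of the Polycomb repressive complex PRC1. The members were 4 of the 6 RNA-seq libraries of the series, 2 labelled control and 2 labelled shCBX8-2. They were picked by these labels, with earlier results of these data known. The other 2 libraries carried a first hairpin, shCBX8-1, and entered the direct comparison of the hairpins and 1 alternative fit with all 6 libraries. All 6 came from A549 cells infected with lentivirus and kept as stable lines, so the control cells had also been infected, with a control shRNA. No source used here gives the hairpin sequences or says whether a line was a pool or 1 clone. No label ties the paired libraries of a group to separate cultures, so p-values measure the spread between these libraries, which may be technical. The title of the series names CBX8 as a repressor of CDKN2C and SCEL, and this sets the question for both genes.

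PRC1 acts on chromatin together with a second Polycomb complex, PRC2. PRC2 places trimethylation on lysine 27 of histone H3, chromobox proteins of canonical PRC1 bind that mark, and the RING subunits of PRC1 ubiquitinate histone H2A. Many developmental genes with promoters rich in CG dinucleotides are silenced this way. CDKN2C encodes p18-INK4c, an inhibitor of the G1 kinases CDK4 and CDK6, and SCEL encodes sciellin, a precursor of the cornified envelope of stratified epithelia.

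The promoter sequences of CDKN2C and SCEL are shown because the title makes both genes targets of repression. That of H19 is shown because this gene had the largest log2 rise of the named genes with counts in both groups. Each is the 250 bases before the annotated start in the RefSeq promoter table (GRCh38.p14), written 5′ to 3′ on the gene's strand, with each CG dinucleotide in capitals. The CDKN2C window lies at chr1:50960495-50960744 on the plus strand, that of SCEL at chr13:77535456-77535705 on the plus strand, and that of H19 at chr11:2001267-2001516 on the minus strand.
CDKN2C: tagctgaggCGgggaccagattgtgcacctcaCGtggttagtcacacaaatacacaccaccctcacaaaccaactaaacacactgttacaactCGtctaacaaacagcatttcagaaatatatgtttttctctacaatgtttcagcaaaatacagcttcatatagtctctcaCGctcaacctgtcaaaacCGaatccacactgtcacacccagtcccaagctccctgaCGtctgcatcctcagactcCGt
SCEL: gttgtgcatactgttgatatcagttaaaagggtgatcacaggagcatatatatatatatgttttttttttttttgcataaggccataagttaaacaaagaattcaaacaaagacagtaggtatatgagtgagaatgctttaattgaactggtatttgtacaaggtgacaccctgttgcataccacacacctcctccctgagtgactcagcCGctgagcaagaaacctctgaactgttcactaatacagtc
H19: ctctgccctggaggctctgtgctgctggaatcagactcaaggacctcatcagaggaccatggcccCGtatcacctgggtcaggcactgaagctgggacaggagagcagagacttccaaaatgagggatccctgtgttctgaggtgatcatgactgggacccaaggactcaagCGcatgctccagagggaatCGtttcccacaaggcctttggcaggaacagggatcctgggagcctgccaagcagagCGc
CG was the only motif searched, and it reads the same on both strands. The windows held 7, 1 and 4 CG pairs in that order, against a median of 11 over the 27305 promoters of the table, of which 93.6% held at least 1. Of all promoters in the table, 41.6% had fewer CG pairs than that of CDKN2C, 6.4% fewer than that of SCEL and 30.1% fewer than that of H19.

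CBX8 (chr17:79792132-79797077) was lower in both shCBX8-2 libraries than in both controls, but the difference missed the threshold. CBX8 stood at 24.6 and 26.2 CPM in the control libraries and 17.2 and 13.9 CPM in the shCBX8-2 libraries. The groups did not overlap. The mean went from 25.4 ± 1.14 to 15.6 ± 2.38 CPM (SD, n = 2), a log2 difference of -0.71 ± 0.16 (SE; edgeR quasi-likelihood test, Benjamini-Hochberg adjusted p = 0.0679), a fold of 0.612. In bulk RNA, fewer cells with a transcript and less of it per cell cannot be told apart, here and below. CPM here is the count scaled to library size with TMM factors, and a gene was called where its adjusted p was under 0.05. The adjusted p was 0.00955 with DESeq2 and 0.0297 with all 6 libraries in the edgeR fit. In edgeR it was 0.016 with a GC offset per library and 0.0227 with that offset and the replicate block. It stayed above the threshold with the replicate number as a block (0.1245) and without the filter on low counts (0.098). The same held with DESeq2 size factors (0.083) and without rows of accessions listed more than 1 time (0.0746). The adjusted p was 0.00255 without the first and 0.0151 without the second shCBX8-2 library, and 0.393 and 0.466 without the first and the second control library. Each of these 4 fits leaves 1 arm with a single library and takes the spread from the other group alone, so the lower values are no separate support for a difference.

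CDKN2C and SCEL were both higher with shCBX8-2. CDKN2C measured 21.4 and 20.4 CPM in the control libraries and 44.5 and 42.9 CPM in the shCBX8-2 libraries, and its log2 difference was 1.06 ± 0.10 (adjusted p = 0.0233). The shCBX8-2 libraries were close to each other and both above both controls. SCEL measured 6.95 and 7.74 CPM in the control libraries and 22.5 and 26.6 CPM in the shCBX8-2 libraries, a log2 difference of 1.74 ± 0.16 (adjusted p = 0.0211), again with no overlap. With the replicate number as a block the adjusted p was 0.0603 for CDKN2C and 0.0478 for SCEL. Without the first control library it was 0.313 for both genes, and without the second 0.356 for both.

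**Figure D1:**
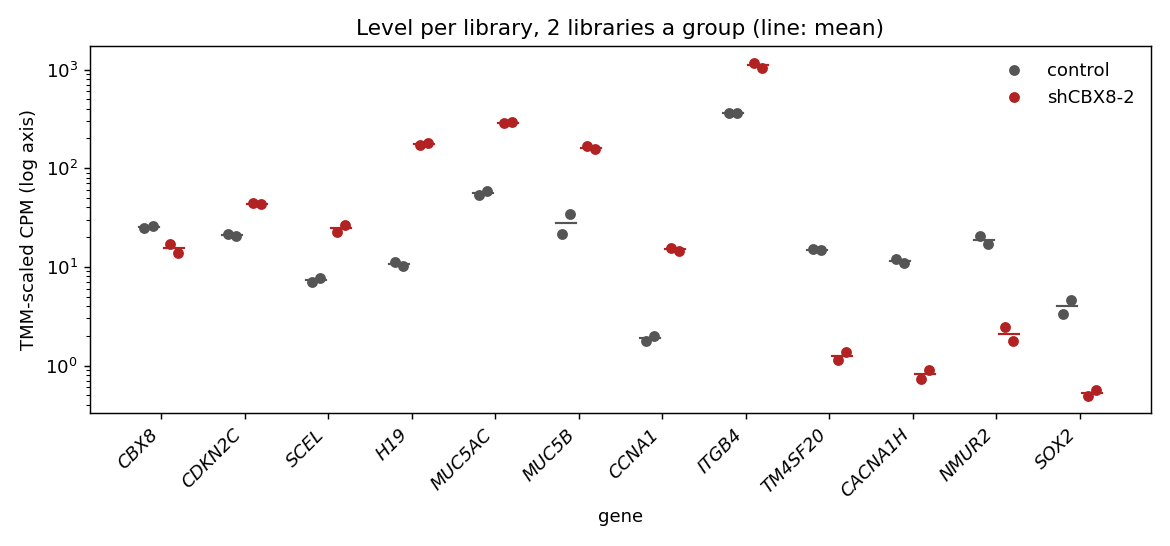
TMM-scaled CPM on a log axis in the 2 control and 2 shCBX8-2 libraries, 1 point per library, for CBX8, CDKN2C, SCEL and genes with large changes. CBX8 lies lower and CDKN2C and SCEL lie higher in both shCBX8-2 libraries, with no overlap between the groups.

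The libraries held 64751043 and 64822441 counts in control and 67169537 and 64317603 in shCBX8-2, with 18768 and 18781 genes above 0 in control and 17978 and 18143 in shCBX8-2. The control libraries differed by a median of 0.10 on the log2 scale (pseudocount 0.1 CPM) over 13631 genes with a mean of at least 1 CPM, and the shCBX8-2 libraries by 0.18. The spread varied with GC content. Over 13380 such genes with a GC value, the deviation of a library from the mean of the 4 correlated with GC at a Spearman coefficient of -0.20 and -0.10 in control, 0.44 in the first and -0.38 in the second shCBX8-2 library, a description over genes that share these libraries. In the third of genes with the lowest GC, under 44.96%, the shCBX8-2 libraries differed by a median of 0.35, against 0.12 in the middle and 0.16 in the third with the highest GC, above 54.93%. Calls were fewest at low GC, at 70 higher and 93 lower of 5209 genes of low GC, 179 and 181 of 5499 in the middle, and 235 and 233 of 5466 of high GC. RNF2, a RING subunit of PRC1 with 38.1% GC, shows the split, at 24.5 and 24.1 CPM in control and 11.9 and 27.7 CPM in shCBX8-2. Whether the GC trend arose in the cells or in the libraries was not tested.

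**Figure D2:**
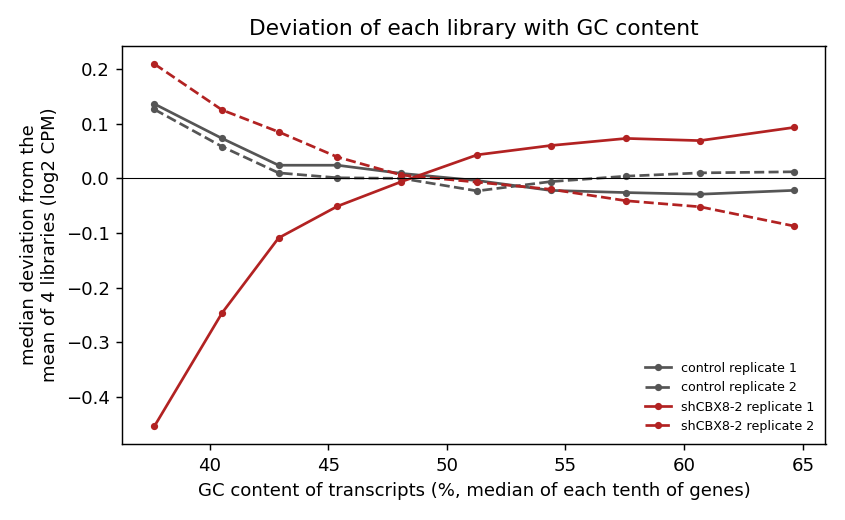
Median deviation in log2 CPM of each library from the mean of the 4 libraries (vertical axis) in 10 classes of gene GC content in percent (horizontal axis), 1 line per library. The first shCBX8-2 library lies lowest and the second highest in the class of lowest GC, and the control libraries stay closer to 0.

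The label A549 was checked against marker lists. KRT8 stood at 13840 and 13500 CPM in control and 16630 and 15340 CPM in shCBX8-2, and KRT18 at 9302 and 9014 CPM in control and 11470 and 10470 CPM in shCBX8-2, both keratins of simple epithelia. Of 10 markers of the line edgeR called none (3 higher and 1 lower unadjusted, 1 and 0 by DESeq2), KRT19 was low at 0.407 and 0.358 CPM in control and 0.490 and 0.657 CPM in shCBX8-2, and the summed level was 33600 and 33020 CPM in control and 38550 and 35640 CPM in shCBX8-2. SFTPC, CD3E, DCN and KDR, defining markers of alveolar cells, T cells, fibroblasts and endothelium, had 0 counts in all 4 libraries, and PTPRC had 12 in 1 control library and 0 in the others. Other members of the same lists had counts. The leukocyte marker CD68 had 5329 and 5700 in control and 6093 and 5880 in shCBX8-2, and CD14 had 292 and 311 against 248 and 166. The endothelial marker CDH5 had 161 and 97 in control and 295 and 226 in shCBX8-2. The summed leukocyte list was 96.2 and 100.6 CPM in control and 115 and 112 CPM in shCBX8-2, with 1 of 7 measured members higher (CORO1A) and 1 lower (CD33). The fibroblast list was 1590 and 1550 against 2158 and 2027 CPM, nearly all of it VIM, which A549 also expresses. In that list VIM rose, ACTA2 (-1.22) and COL1A1 (-1.29) fell, 6 of 9 measured did not pass, and the median was -1.29. The endothelial list was 2.82 and 1.82 against 5.77 and 4.79 CPM with none of 3 called. The alveolar list was 2.25 and 2.82 against 1.12 and 0.721 CPM with none of 3 called. A list for kidney packaging cells was 481 and 465 against 608 and 570.2 CPM, with 1 of 9 higher (TUBB3) and 2 lower (NEFL, PAX2). Called members made up 28.6% of the leukocyte list and 33.3% each of the fibroblast and packaging lists, beside 5.99% over all genes tested.

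Across all genes, similar numbers rose and fell with shCBX8-2, but the falls were larger and lay at lower levels. Of 16659 genes tested, 998 passed (5.99%), 486 of them higher (2.92%) and 512 lower (3.07%). The median log2 difference was 0.64 among the higher and -1.15 among the lower genes, against -0.06 over all genes tested. A change of at least 2-fold was found for 87 higher (0.522%) and 297 lower genes (1.78%). The higher genes went from a median of 72.5 to 115 CPM and the lower genes from 19.4 to 8.32 CPM. Among 2154 genes above 100 CPM, 231 rose and 61 fell, while among 3724 genes from 1 to 10 CPM, 30 rose and 197 fell. Of 14215 protein-coding genes 479 rose and 492 fell, and of 1589 lncRNA genes 5 rose and 12 fell.

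All 998 called genes had both shCBX8-2 libraries on the same side of both controls. The same held for 4316 genes on the higher side (25.9% of those tested) and 5471 on the lower side (32.8%), most of which did not pass. The test had 2 residual degrees of freedom, and the number of calls changed with each library left out. It was 3573 without the first shCBX8-2 library and 5772 without the second, and 0 without either control library, where 2057 and 1851 genes had an unadjusted p under 0.05 and the smallest adjusted p was 0.207 and 0.256. In each of these fits 1 arm holds a single library, which is assumed to vary like the other group. With the replicate number as a block 97 genes passed. The direction of all 998 was kept in each of these fits. No gene named here as called passed without either control library, which holds for every call given below.

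**Figure D3:**
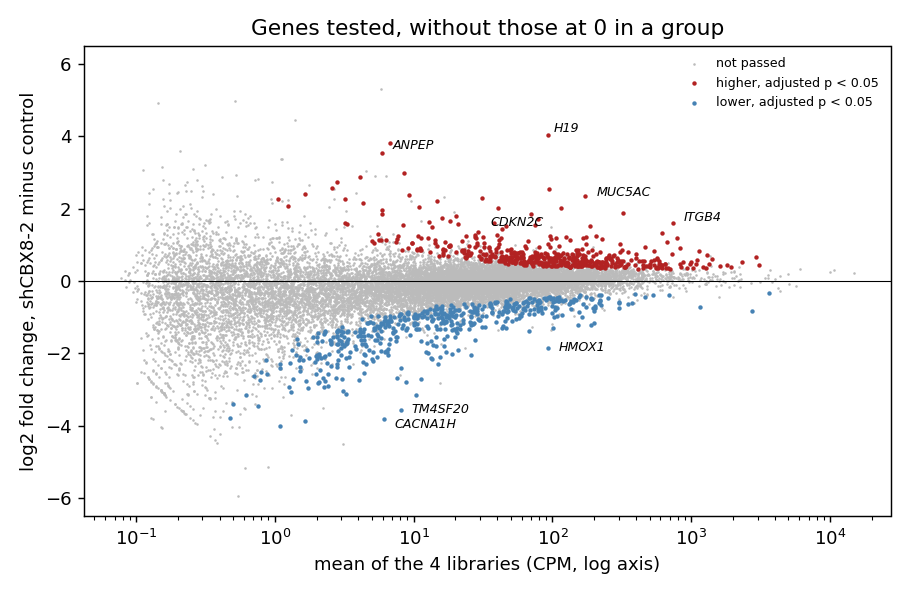
Log2 difference of shCBX8-2 minus control (vertical axis) against the mean CPM of the 4 libraries (horizontal log axis) for 16543 genes. Called genes are in colour, and genes at 0 in a group are left out. Called genes lie mostly above 0 at high CPM and mostly below 0 at low CPM.

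H19, an imprinted long non-coding RNA that is abundant in fetal tissue, had the largest log2 rise of a named gene with counts in both groups. It measured 11.3 and 10.1 CPM in the control libraries and 172 and 179 CPM in the shCBX8-2 libraries, a log2 difference of 4.03 ± 0.10 (adjusted p = 0.00282). Both shCBX8-2 libraries stood more than 10 times above both controls. H19 overlaps MRPL23 in the annotation, and MRPL23 had 7041 and 7316 counts in control and 7699 and 6774 in shCBX8-2. Of 17 imprinted genes measured, edgeR called H19 and PHLDA2, a growth regulator of the placenta, higher and none lower. That is 11.8% of the list, beside 5.99% over all genes tested. At an unadjusted p under 0.05, 3 were higher and 3 lower, and DESeq2 called 3 and 3. PHLDA2 went from 27.5 and 27.4 to 48.3 and 43.9 CPM, and the list median was -0.10.

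Several of the genes with the largest rises encode secreted or surface proteins of epithelia. MUC5AC, a gel-forming mucin of the airway, measured 53.7 and 58.7 CPM in control and 287 and 292 CPM in shCBX8-2. MUC5B, the other main airway mucin, measured 21.7 and 33.96 CPM in control and 169 and 155 CPM in shCBX8-2. Their log2 differences were 2.37 ± 0.08 (adjusted p = 0.00682) and 2.54 ± 0.23 (adjusted p = 0.0211). The groups stood well apart for both. MUC16, a membrane mucin, rose from 0.935 and 1.03 to 7.09 and 7.27 CPM, and ANPEP, a surface aminopeptidase, rose from 1.12 and 0.747 to 12.4 and 9.42 CPM. CCNA1, a cyclin best known from the germ line, rose from 1.79 and 2.00 to 15.6 and 14.5 CPM, and TRIM29, a protein of stratified epithelia, rose from 10.3 and 10.9 to 55.2 and 48.7 CPM. The log2 differences of these 4 genes were 2.87, 3.55, 2.99 and 2.29.

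Among the 15 largest rises were also OLFML3 (2.74), EDAR (2.58), a receptor of skin appendage development, CA9 (2.40), a carbonic anhydrase induced by hypoxia, LGALS9B (2.37), MYB (2.27), a transcription factor, KRT16 (2.26), a keratin of stressed epidermis, MMP28 (2.21) and 1 entry with no symbol. LGALS9B has near-identical copies, so its counts are uncertain. MMP28 overlaps C17orf50 and lost its call when rows of accessions listed more than 1 time were left out (adjusted p = 0.13).

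The genes with the largest falls included ion channels and surface receptors. CACNA1H, a T-type calcium channel, measured 11.9 and 10.9 CPM in the control libraries and 0.735 and 0.897 CPM in the shCBX8-2 libraries, a log2 difference of -3.80 ± 0.20 (adjusted p = 0.0126). TM4SF20, a membrane protein of the intestine, measured 15.1 and 14.7 CPM in the control libraries and 1.15 and 1.38 CPM in the shCBX8-2 libraries, a difference of -3.56 ± 0.18 (adjusted p = 0.0126). NMUR2, a receptor for neuromedin U, fell from 20.6 and 16.9 to 2.46 and 1.76 CPM. In each of the 3 genes both shCBX8-2 libraries lay far below both controls. KCNJ4 and KCNH2, both potassium channels, fell, with log2 differences of -4.02 and -3.13. ALPG, an alkaline phosphatase, NIPAL4, APOH, a plasma apolipoprotein, and RGL1 changed by -3.87, -3.04, -2.96 and -2.89. KIF5C (-3.08) and PLA1A (-2.92) lost their calls with repeated accessions left out (adjusted p = 0.0969 and 0.0521). SOX2, a transcription factor of foregut and stem cells, fell from 3.33 and 4.63 to 0.490 and 0.560 CPM, a log2 difference of -2.92 ± 0.31.

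Some genes had counts in control and none with shCBX8-2. There were 105 genes at 0 in both shCBX8-2 libraries with at least 10 counts in each control, of which 14 were called, and 15 genes at 0 in both controls with at least 10 in each shCBX8-2 library, of which none was called (edgeR; the smallest adjusted p was 0.0622, for SKOR1). VIL1, which encodes the microvillus protein villin, had 77 and 103 counts in control and 0 in shCBX8-2, at least 57.5-fold lower against a floor of 3 counts over the group. SHROOM2, an actin regulator, had 105 and 76 counts and was at least 57.8-fold lower, and SLC7A8, an amino acid exchanger, had 54 and 79 and was at least 42.5-fold lower. STIMATE went from 759 and 831 counts to 0, but the readthrough gene STIMATE-MUSTN1, which overlaps it, went from 92 and 12 to 348 and 235, so the split of reads between the 2 is uncertain. In the other direction, GPRASP3 had 0 counts in control and 50 and 280 in shCBX8-2, at least 115-fold higher, with an adjusted p of 0.0653.

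Most proliferation genes had positive differences. Of 47 genes of S phase and DNA replication, 17 rose and none fell, with a list median of 0.48, and 46 had a positive difference. RRM2, the small subunit of ribonucleotide reductase, rose from 120.1 and 124 to 274 and 309 CPM, a log2 difference of 1.25 ± 0.09 (adjusted p = 0.0176). FEN1, a flap endonuclease, rose from 115 and 117 to 196 and 192 CPM, and the helicase subunits MCM7 and MCM4 rose by 0.64 and 0.60. Both shCBX8-2 libraries were above both controls in 44 of the 47, beside 25.9% of all genes tested. The share called was 36.2%, beside 5.99% over all genes tested. At an unadjusted p under 0.05 the edgeR count was 40 higher and 0 lower, and DESeq2 called 37 and 0.

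The G2 and mitosis list, with 59 genes, had 31 that rose and none that fell, and a median of 0.55. Its unadjusted edgeR count was 48 higher and 0 lower, and DESeq2 called 46 and 0. MKI67, the proliferation antigen Ki-67, measured 228 and 221 CPM in the control libraries and 393 and 391 CPM in the shCBX8-2 libraries, a log2 difference of 0.80 ± 0.06 (adjusted p = 0.0178). INCENP, a scaffold of the chromosomal passenger complex, rose from 55.2 and 53.9 to 96.4 and 95.4 CPM, and FOXM1, a transcription factor of mitotic genes, rose from 108 and 113 to 197 and 182 CPM. The groups did not overlap in 52 of the 59 genes on the higher side, beside 25.9% of all genes tested. The share called was 52.5%, beside 5.99% over all genes tested. These shifts were under 2-fold in every called member, the largest being NDC80, a kinetochore protein, at 0.97.

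Of 16 G1 cyclins, kinases and E2F factors, 4 rose and none fell (10 and 1 unadjusted, 9 and 1 by DESeq2): CCNA1, CCNE2, E2F1 and CDK2. Those 4 made up 25% of the list, beside 5.99% over all genes tested. CCNE2, a cyclin partner of CDK2, rose from 3.15 and 3.19 to 6.48 and 9.14 CPM. E2F1, a driver of S phase genes, rose from 73.1 and 78.6 to 122 and 105 CPM. Tubulins and stathmins, the building blocks and destabilizers of microtubules, were listed together with MAPT, which encodes the microtubule-binding protein tau. In this list 10 of 17 members were called (58.8%), 8 higher and 2 lower, beside 5.99% over all genes tested. TUBA1C rose from 863 and 777 to 1535 and 1409 CPM, TUBB4B from 592 and 548 to 1134 and 1017 CPM and STMN1 from 152 and 145 to 246 and 236 CPM. The 2 lower members were TUBB4A (-1.51) and MAPT, both best known from neural cells. Of 24 replication-dependent histones, none rose and H2BC12 (-0.67) fell, with a median of -0.31 (1 higher and 4 lower unadjusted, 0 and 3 by DESeq2). H2BC12 alone made up 4.17% of this list, under the 5.99% over all genes tested. Many transcripts of these histone genes lack a poly(A) tail, and the library selection is not given in the sources used here.

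CDK inhibitors did not move in 1 direction. CDKN2C rose, CDKN1A, the p53-induced inhibitor p21, fell from 603 and 591 to 469.8 and 442 CPM (log2 -0.39 ± 0.06), and 3 of 5 measured did not pass. CDKN2A and CDKN2B, encoding p16 and p15, had 0 counts in all 4 libraries, under a floor of 3 counts over a group. Of 30 targets of p53, the tumour suppressor that A549 carries as wild type, 5 fell and none rose, with a median of -0.40 (18 lower and 0 higher at an unadjusted p under 0.05 in edgeR, 9 and 0 by DESeq2). GDF15, a stress cytokine, fell from 255 and 272 to 120.4 and 109 CPM, a log2 difference of -1.20 ± 0.08. The other 3 beside CDKN1A were FDXR (-0.62), GADD45A (-0.75) and TP53I3 (-0.56). The share of p53 targets called was 16.7%, beside 5.99% over all genes tested.

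Among the Polycomb genes, CBX2, a paralogue of CBX8, was the only one of 26 PRC1 members to pass in edgeR (1 higher and 3 lower unadjusted, 1 and 3 by DESeq2). It rose from 51.7 and 57.8 to 89.3 and 82.5 CPM, a log2 difference of 0.65 ± 0.10 (adjusted p = 0.0361). CBX6 and CBX7, also chromobox paralogues, had differences of -0.12 and 0.22 that did not pass. CBX7 measured 11.6 and 9.62 CPM in control and 13.7 and 11.1 CPM in shCBX8-2, and its groups overlapped. BMI1, a PCGF subunit, measured 57.5 and 41.02 CPM in control and 22.4 and 29.2 CPM in shCBX8-2 (adjusted p = 0.0764 with edgeR and 0.00132 with DESeq2). BCORL1 measured 22.9 and 28.4 CPM in control and 17.5 and 15.2 CPM in shCBX8-2 (adjusted p = 0.0898 with edgeR and 0.0249 with DESeq2). Called members made up 3.85% of the PRC1 list, under the 5.99% over all genes tested. The PRC1 median was -0.13 in the first and 0.09 in the second shCBX8-2 library against the control mean. Within the list, RNF2, SCML1, PCGF5 and PHC3, with 37.4 to 38.1% GC, had the first library below and the second near or above control. SCML1, for example, measured 22.6 and 24.5 CPM in control and 8.34 and 25.5 CPM in shCBX8-2.

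Of 13 PRC2 genes, EZH2 and PHF19 rose and none fell, a share called of 15.4% beside 5.99% over all genes tested. EZH2, the H3K27 methyltransferase, rose from 43.5 and 47.2 to 71.7 and 74.2 CPM, a log2 difference of 0.69 ± 0.09 (adjusted p = 0.0284), and PHF19, an accessory subunit, rose from 59.8 and 60.5 to 96.3 and 87.4 CPM. SUZ12, a core subunit of low GC, measured 72.1 and 72.6 CPM in control and 44.2 and 86.99 CPM in shCBX8-2, so that its shCBX8-2 libraries lay on either side of control.

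HOX genes and developmental transcription factors are silenced by Polycomb complexes in many cell types. Of 39 HOX genes 27 were measured, and edgeR called none, with a median of -0.26 and a range from -1.70 to 0.49. At an unadjusted p under 0.05, 1 HOX gene was higher and 4 lower, and DESeq2 called 1 and 1. Of 54 developmental transcription factors measured, 2 rose and 1 fell, with a median of -0.27. ZIC2, a factor of neural development, rose from 10.3 and 11.2 to 22.9 and 22.9 CPM, ALX1, a craniofacial homeobox factor, changed by 0.89, and PAX2, a kidney factor, fell from 2.86 and 3.12 to 0.995 and 1.04 CPM. Of 28 factors of lung, gut and liver lineage, KLF4 rose from 26.4 and 27.8 to 56.7 and 54.2 CPM, while SOX2 and GATA3 (-0.99) fell. The shares called were 0% of HOX genes, 5.56% of developmental factors and 10.7% of lineage factors, beside 5.99% over all genes tested.

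**Figure D4:**
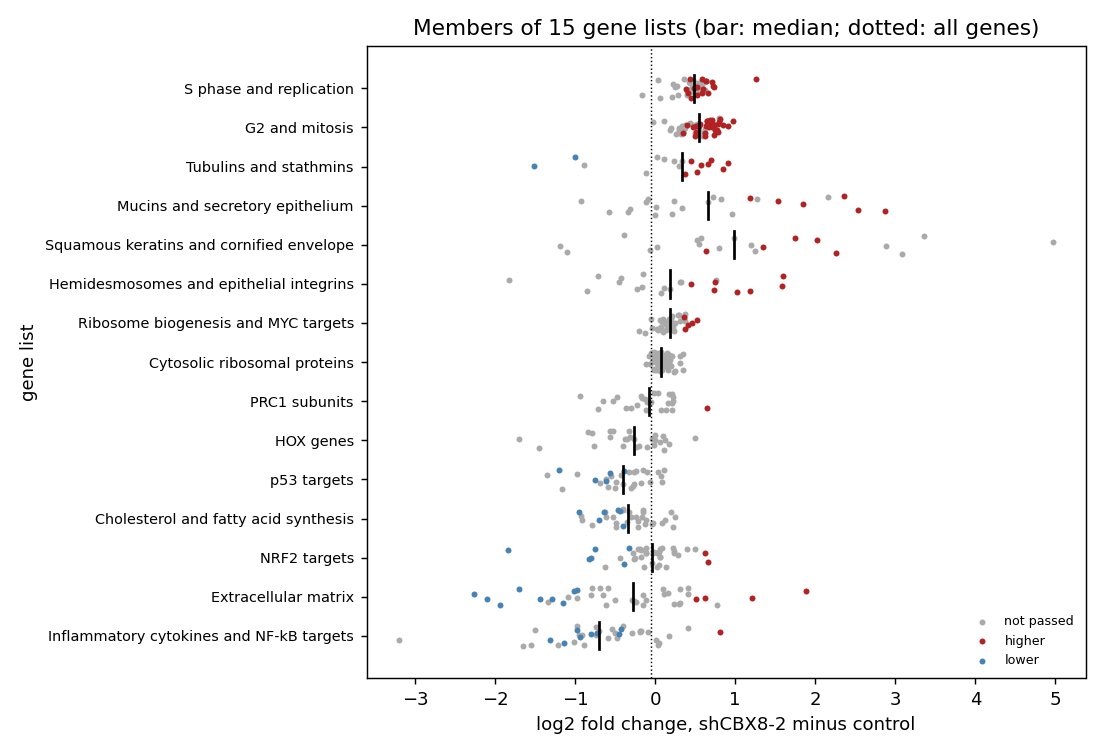
Log2 differences of shCBX8-2 minus control for the members of gene lists, 1 row per list and 1 point per gene, with the list median marked and called genes in colour. Genes of S phase, G2 and mitosis lie almost wholly above 0, and NF-kB targets, cholesterol synthesis genes and p53 targets mostly below 0.

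Several secretory and squamous genes rose. Of 23 mucins and secretory genes, 6 rose and none fell (11 and 0 at an unadjusted p under 0.05, 9 and 0 by DESeq2), with a median of 0.66: MUC5AC, MUC5B, MUC16, SLPI, LCN2 and CEACAM6. SLPI, a protease inhibitor of airway mucus, measured 30.4 and 31.1 CPM in the control libraries and 111 and 109.7 CPM in the shCBX8-2 libraries, a log2 difference of 1.85 ± 0.08 (adjusted p = 0.0121). LCN2, an iron-binding antimicrobial protein, rose from 89.2 and 104 to 290.4 and 267 CPM, and CEACAM6, an adhesion protein, rose from 103 and 99.5 to 223 and 239 CPM. Of 21 squamous keratins and cornified envelope genes, 5 rose and none fell (10 and 0 unadjusted, 8 and 0 by DESeq2), with a median of 0.98. KRT15, a keratin of basal epithelium, rose from 14.6 and 17.2 to 68.5 and 61.1 CPM, TGM2, a transglutaminase, rose from 317 and 377 to 921 and 839.7 CPM, and the plakin PPL rose by 0.64. SCEL and KRT16 were the others, so that part of this list's count repeats genes given above. Of 8 simple epithelial keratins, only KRT20 was called, lower, and it lost the call with repeated accessions left out (adjusted p = 0.0637). The shares called were 26.1% of mucins and secretory genes, 23.8% of squamous genes and 12.5% of simple keratins, beside 5.99% over all genes tested.

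Genes of hemidesmosomes and epithelial integrins, which anchor basal cells to the matrix, rose in 7 of 21 members and fell in none (9 and 2 unadjusted, 9 and 2 by DESeq2). ITGB4, the hemidesmosome integrin, measured 362 and 366 CPM in the control libraries and 1175 and 1033 CPM in the shCBX8-2 libraries, a log2 difference of 1.60 ± 0.08 (adjusted p = 0.0126). ITGA3 rose from 476 and 491 to 1141 and 1064 CPM, LAMB3, a chain of laminin 332, rose from 199 and 206 to 431 and 392 CPM, and COL17A1, the hemidesmosome collagen, rose by 1.58. PLEC, LAMA3 and LAMA5 were the other 3. The share of this list called was 33.3%, beside 5.99% over all genes tested. For the claudin and EMT lists, given next, the shares called were 9.09% and 11.8%. Claudins and tight junction genes went the other way in 2 of 22 members, with CLDN2 falling from 26.1 and 33.5 to 10.8 and 9.46 CPM and CLDN1 from 68.5 and 60.4 to 38.7 and 44.01 CPM. Of 17 EMT regulators and cadherins, VIM rose from 1548 and 1502 to 2138 and 2008 CPM and CDH2, N-cadherin, fell from 3.90 and 5.11 to 1.82 and 1.57 CPM, and CDH1, E-cadherin, measured 19.3 and 21.8 CPM in control and 17.97 and 17.8 CPM in shCBX8-2 and did not pass (adjusted p = 0.402).

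The matrix changed in both directions, with 4 of 40 genes higher and 9 lower. FN1, fibronectin, fell from 258 and 296 to 126 and 123 CPM, a log2 difference of -1.15 ± 0.09 (adjusted p = 0.0178), and COL6A1 and COL6A2, chains of collagen VI, changed by -1.70 and -1.94. FBN2, fibrillin 2, fell from 27.1 and 23.00 to 5.10 and 6.55 CPM, and SPARC, a matricellular protein, fell (log2 difference -2.26). The 4 that rose were FBLN1 (1.89), TNC (1.21), TGFBI (0.62) and LTBP3 (0.51). FBLN1, fibulin 1, went from 130.1 and 144 to 550.2 and 463 CPM. The share of matrix genes called was 32.5%, beside 5.99% over all genes tested.

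Of 34 matrix proteases and inhibitors, 6 rose and 3 fell. SERPINE2, an inhibitor of serine proteases, rose from 89.3 and 75.8 to 179 and 187 CPM, SPINT2, an inhibitor of hepsin and matriptase, rose from 537 and 542 to 948 and 861 CPM, and MMP2, gelatinase A, rose by 1.18. PLAU, the urokinase plasminogen activator, rose by 0.47, whereas PLAT, the tissue activator, fell (log2 difference -1.03). TGF-beta and YAP targets were split as well, with 3 of 31 higher and 4 lower. The shares called were 22.6% of these targets and 26.5% of the proteases and inhibitors, beside 5.99% over all genes tested. CCN2, a classical YAP target, fell from 31.7 and 28.5 to 12.4 and 9.88 CPM, ANKRD1 changed by -1.74, TGFB1 itself fell from 126 and 146 to 72.98 and 64.97 CPM, and TAGLN rose by 0.86.

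Several inflammatory genes fell. Of 37 cytokines and NF-kB targets, 8 fell and 1 rose, with a median of -0.71, and in 29 both shCBX8-2 libraries lay below both controls. The share called was 24.3%, beside 5.99% over all genes tested, of which 32.8% lay below both controls. CCL2, a monocyte chemokine, measured 161 and 126 CPM in the control libraries and 55.00 and 60.97 CPM in the shCBX8-2 libraries, a log2 difference of -1.31 ± 0.14 (adjusted p = 0.024). MAP3K8, a kinase of the inflammatory MAPK cascade, fell from 34.2 and 36.2 to 15.3 and 16.6 CPM, CSF1, a macrophage growth factor, fell from 41.5 and 40.6 to 21.5 and 20.3 CPM, and NFKBIA, the inhibitor IkB-alpha, fell from 111 and 112 to 82.6 and 80.6 CPM. SDC4, a syndecan, was the member that rose (0.81).

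Of 41 interferon-stimulated genes, OAS1 (0.95) and OAS3 (0.63), both antiviral synthetases, rose and none fell, with a median of -0.07 (3 higher and 7 lower unadjusted, 2 and 1 by DESeq2). The share of interferon-stimulated genes called was 4.88%, under the 5.99% over all genes tested. In HLA class I antigen presentation, 5 of 18 genes were called (27.8%). CALR, a chaperone, rose, and TAP1, PSMB9, HLA-B and HLA-E, which have repeated accessions, were called lower with all rows summed. Without these rows TAP1 and PSMB9 did not pass (adjusted p = 0.0673 and 0.121). HLA-B, in a near-identical family, turned from a log2 difference of -0.52 to 4.37, so its direction is uncertain. Of 18 acute phase and complement genes, C3, the central complement component, rose from 94.9 and 115 to 255 and 236 CPM. C1S fell from 102 and 108 to 63.1 and 58.4 CPM, with APOH the other member that fell. Called members made up 16.7% of this list, beside 5.99% over all genes tested.

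Several lipid synthesis genes fell. Of 34 genes of cholesterol and fatty acid synthesis, 6 fell and none rose (18 and 2 unadjusted, 14 and 0 by DESeq2), with a median of -0.34, and 27 had both shCBX8-2 libraries below both controls. SCD, stearoyl-CoA desaturase, measured 1411 and 1448 CPM in the control libraries and 863 and 893 CPM in the shCBX8-2 libraries, a log2 difference of -0.70 ± 0.06 (adjusted p = 0.0178). FADS2, a fatty acid desaturase, fell from 526 and 534 to 403 and 381 CPM, TM7SF2, a sterol reductase, fell from 22.03 and 24.6 to 12.9 and 11.1 CPM, and SQLE, squalene epoxidase, fell from 128 and 121 to 91.2 and 89.7 CPM. ACSL3 and FDFT1 were the other 2. The share of this list called was 17.65%, beside 5.99% over all genes tested, of which 32.8% lay below both controls.

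Of 40 targets of NRF2, the antioxidant factor that is active in A549 through a KEAP1 mutation, 6 fell and 2 rose. HMOX1, heme oxygenase 1, fell from 148 and 141 to 41.3 and 39.5 CPM, a log2 difference of -1.84 ± 0.08 (adjusted p = 0.0121). ALDH1A1, a retinal dehydrogenase, fell from 3522 and 3523 to 1793 and 2172 CPM, and PTGR1 fell from 389 and 366 to 226 and 224 CPM. The median was -0.03, close to that of all genes tested. Of 39 genes of glycolysis and hypoxia, 5 rose and 2 fell, with a median of 0.07. The shares called were 17.95% of this list and 20% of the NRF2 targets, beside 5.99% over all genes tested. SLC2A1, the glucose transporter GLUT1, rose from 317 and 316 to 631 and 593 CPM, and LDHA, lactate dehydrogenase A, rose from 2653 and 2570 to 3547 and 3507 CPM. CA9, PGK1 and TPI1 were the others that rose, and PFKM and HK1 fell (log2 differences of -0.55 and -0.44).

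Stress and transport genes gave mixed results. Of 38 genes of the amino acid and unfolded protein response, ATF5 and STC2 rose, and NUPR1 (-1.77), PHGDH and ADM2 fell. Of 23 amino acid transporters, SLC6A6 and SLC7A1 rose and 4 fell, among them SLC7A7, a cationic amino acid exchanger, which went from 11.5 and 14.5 to 2.23 and 1.86 CPM. Called members made up 13.2% of the stress list and 26.1% of the transporters, beside 5.99% over all genes tested. The transporter median was -0.55 in the first and -0.001 in the second shCBX8-2 library, so the list differed between the libraries.

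Of 77 cytosolic ribosomal proteins edgeR called none, with a median of 0.08 and a range from -0.11 to 0.35 (7 higher and 0 lower unadjusted, 4 and 0 by DESeq2). In the list of MYC targets and ribosome biogenesis, 5 of 37 rose and none fell (15 and 0 unadjusted, 12 and 0 by DESeq2), with a median of 0.18, and 33 were positive. The share called was 13.5%, against 5.99% over all genes tested. TCOF1, a nucleolar factor of ribosomal RNA synthesis, rose from 136 and 137 to 201 and 193 CPM, and NOP56 rose from 391 and 366 to 525 and 514 CPM. NCL, PA2G4 and CAD were the other 3. Of 60 respiratory chain subunits, COX7C rose from 75.6 and 74.4 to 149.8 and 145 CPM and NDUFA6 by 0.43. The call of NDUFA6 was lost with repeated accessions left out (adjusted p = 0.0988). Called members made up 3.33% of this list, under the 5.99% over all genes tested.

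In the Notch list, 3 of 26 rose and 1 fell, a share called of 15.4% beside 5.99% over all genes tested. LFNG and MFNG, glycosyltransferases that tune Notch ligand binding, rose from 3.77 and 4.72 to 12.3 and 12.6 CPM and from 3.44 and 3.33 to 7.16 and 6.93 CPM, and the receptor NOTCH1 rose from 42.4 and 42.99 to 64.2 and 64.5 CPM, while HES7 fell (log2 difference -1.59). In the Wnt list, 2 of 34 rose and 4 fell (17.6% called), with a median of -0.45. The antagonists SFRP4 and SFRP1 fell (log2 differences of -2.38 and -0.86), NKD2 and KREMEN2 were the others that fell, and the ligand WNT9A and the receptor LGR6 rose by 1.80 and 1.59. Of 31 ERK feedback and AP-1 genes, the phosphatase DUSP4 and the AP-1 subunit FOSL1 rose by 0.52 and 0.65 and SPRED3 fell. Of 22 EGFR family members and related receptors, EGFR rose from 149 and 144 to 197 and 203 CPM. FGFR4, in the same list, fell from 71.9 and 74.6 to 40.5 and 30.97 CPM. Called members made up 9.68% of the ERK and AP-1 list and 9.09% of the EGFR list, beside 5.99% over all genes tested.

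Promoter CG content was set beside the calls for 11553 of 14215 protein-coding genes tested (81.3%) that had a sequence in the promoter table. Among 1106 genes with 0 to 4 CG pairs in the 250 bases, 31 rose (2.8%) and 60 fell (5.42%). Among 2343 genes with 5 to 14, 73 rose and 88 fell, and among 8104 genes with 15 or more, 276 rose (3.41%) and 231 fell (2.85%). The class with few CG pairs also had lower levels, with a median of 2.86 CPM in control against 31.6 CPM in the class with the most, and from 1 to 10 CPM more genes fell than rose, as given above. The part of level in these shares was not tested. CDKN2C falls in the middle class and SCEL in the class with the fewest.

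The positions of called genes were compared next. Of 16521 adjacent pairs of tested genes, 48 pairs were called with the same sign (0.291%) and 22 pairs with opposite signs. Single genes were called higher in 2.92% and lower in 3.07% of those tested. The counts of pairs and runs for unrelated neighbours were not computed. There were 4 runs of 3 genes. ABHD4, OXA1L and SLC7A7 on chromosome 14, CYFIP2, NIPAL4 and ADAM19 on chromosome 5, and ELMO1, SFRP4 and EPDR1 on chromosome 7 were lower, and MFNG, CARD10 and CDC42EP1 on chromosome 22 were higher.

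The hairpins were compared directly, with only the 4 hairpin libraries in the fit. Of 16555 genes tested, 640 differed (3.87%), 224 higher (1.35%) and 416 lower (2.51%) with shCBX8-2. CBX8 itself was higher with shCBX8-2, at 7.76 and 7.66 CPM in shCBX8-1 and 17.02 and 13.7 CPM in shCBX8-2, a log2 difference of 0.99 ± 0.17 (adjusted p = 0.046). CDKN2C measured 37.3 and 38.4 CPM in shCBX8-1 and 43.95 and 42.4 CPM in shCBX8-2, a difference of 0.19 ± 0.10 that did not pass (adjusted p = 0.321), and SCEL measured 15.4 and 19.8 CPM in shCBX8-1 and 22.2 and 26.3 CPM in shCBX8-2, a difference of 0.46 ± 0.18 (adjusted p = 0.214). For both genes all shCBX8-2 libraries lay above both shCBX8-1 libraries. No gene passed without either shCBX8-1 library, where 1643 and 1686 had an unadjusted p under 0.05, and 2745 and 5213 passed without the first and second shCBX8-2 library.

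The gel-forming mucins differed strongly between the hairpins. MUC5AC stood at 23.7 and 22.4 CPM in shCBX8-1 and 284 and 288 CPM in shCBX8-2, with a log2 difference between the hairpins of 3.63 ± 0.08 (adjusted p = 0.00111). MUC5B stood at 25.1 and 28.5 CPM in shCBX8-1 and 167 and 153 CPM in shCBX8-2. H19 stood at 45.6 and 50.4 CPM in shCBX8-1 and 169.6 and 177 CPM in shCBX8-2, a difference of 1.85 ± 0.09 (adjusted p = 0.00736). NMUR2, lower than control with shCBX8-2, stood at 39.6 and 38.2 CPM in shCBX8-1 and 2.43 and 1.74 CPM in shCBX8-2. The differences of ANPEP and MUC16 did not pass, at 0.37 ± 0.18 (adjusted p = 0.313) and 0.28 ± 0.16 (adjusted p = 0.36), which does not show that the hairpins act alike.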

How the data were processed

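RNA from A549 cells was sequenced in 6 libraries, of which 4 were used for the main comparison. The authors deposited 1 table of estimated counts per RefSeq transcript for all libraries, read as whole numbers, and no sequencing reads were processed here. HISAT2 2.2.1, StringTie 2.2.1, DESeq2 1.34.0 and build hg38 are named per the submitters' processing notes, with no role or order; how reads were shared among isoforms, the strand and the library selection were each not given in the sources used here. Of 84787 transcript rows, 83963 matched the RefSeq gene table of GRCh38.p14 and 355 more GENCODE v29, and rows were summed to 28436 genes. The 469 unmatched rows (0.064 to 0.078% of counts) were kept under their own entries. Rows of repeated accessions, 12094 in number, held 2.89 to 3.17% of counts. Counts of overlapping genes and near-identical copies depend on how reads were assigned and are uncertain.

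Genes were filtered with filterByExpr (minimum count 10, total 15), scaled with TMM and tested two-sided with edgeR 4.0.16 (quasi-likelihood, R 4.3.3), with Benjamini-Hochberg adjustment over all genes tested and a threshold of 0.05. The standard error is the fold change divided by the root of F. The common dispersion gave a biological coefficient of variation of 20.5%. On simulated counts for 16261 genes the test recovered 2.98% of genes changed 1.5-fold, 37.3% of those changed 2-fold and 87.9% of those changed 4-fold. Of its 96 calls 11 were false, a larger share than the threshold of 0.05. In the data, 20 of 586 genes with a fitted change over 4-fold were called higher and 95 lower. The simulated shares therefore do not give the recovery in these data. GC content was available for 97.1% of tested genes. Alternatives were DESeq2 1.42.0 (Wald test), its size factors, no filter, all 6 libraries, the replicate block, a GC offset per library (lowess span 0.3), the last 2 together, no repeated accessions, and each library left out.

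The members, gene lists and tests were chosen with earlier results of these data known. Text names CBX8, CDKN2C and SCEL, the 15 highest and 15 lowest called genes with a mean of at least 1 CPM, the 4 members of each of 44 lists with the smallest p, and Polycomb and marker genes; other members were named after their values were seen. Placing members at 0 at their bound moved none of the list medians.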

Additional observations from a re-analysis of the deposited data

Results flagged for a closer look

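Of the 33 title genes and most changed genes, 15 differed between the hairpins in the direct test over the 4 hairpin libraries (edgeR, adjusted p under 0.05). CBX8 differed by 0.99 on the log2 scale, that is, it was higher with shCBX8-2 than with shCBX8-1, in both libraries. Of genes that had risen against control, 7 were higher with shCBX8-2 than with shCBX8-1: MUC5AC (3.63), MUC5B (2.57), LGALS9B (2.12), TRIM29 (2.09), H19 (1.85), CCNA1 (1.39) and MMP28 (1.12). Of genes that had fallen against control, 7 were lower with shCBX8-2 than with shCBX8-1: NMUR2 (-4.22), KIF5C (-3.17), SOX2 (-3.11), NIPAL4 (-3.08), KCNH2 (-3.07), CACNA1H (-2.93) and RGL1 (-2.79). These genes were named for large changes with shCBX8-2, and the same shCBX8-2 libraries entered both comparisons, so the matching signs are no separate evidence. In none of the 15 did the libraries of the hairpins overlap, and in each the difference lost its call without either shCBX8-1 library.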

How the results depend on the processing

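For shCBX8-2 against control the 998 calls became 2544 with DESeq2 (1341 higher, 1203 lower), 487 without the filter on low counts, 2171 with all 6 libraries in the fit and 2861 with the GC offset. Size factors gave 974 and leaving out repeated accessions 863. Leaving out 1 library gave from 0 (either control) to 5772 (the second shCBX8-2 library). For shCBX8-2 against shCBX8-1 the 640 calls became 2017, 257, 1683 and 2306 in the same order, and from 0 to 5213 with 1 library left out. The replicate block left 97 and 367 calls, and with the GC offset 2435 and 1397. The replicate numbers are not said to pair libraries, and deviations of same-numbered libraries correlated at 0.009, so the block rests on a number only. Of 143 called genes named, 92 did not pass with the block, 37 without the filter, 12 without repeated accessions, and 143 without either control library. The 12 include E2F1, CDK2, CLDN1, ALX1 and CD33, at adjusted p from 0.0508 to 0.0531 in edgeR. HLA-B turned to 4.37 without repeated accessions. SFTPB, with 0 to 20 counts, had fitted differences from -6.315 to 0.56 with 1 library left out. Within a list, medians above 0.1 in size kept their sign except for 1 list each without the second control and without the first shCBX8-2 library. The cause of these differences was not tested. Among 12615 genes with a fitted change under 1.5-fold, 203 were called higher and 52 lower. From 1.5 to 2-fold, 196 of 2103 genes were called higher and 163 lower. Most genes with changes of these sizes were thus not called.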

Other observations

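Genes were also grouped by symbol, after their values had been seen. Of 83 potassium, calcium and sodium channel genes tested, 2 rose and 8 fell, with a median log2 difference of -0.48, and 47 had both shCBX8-2 libraries below both controls. Over all genes tested 3.07% fell and 32.8% had both libraries below both controls. CACNA1G, a T-type calcium channel like CACNA1H, fell from 18.7 and 20.5 to 2.76 and 3.25 CPM, a log2 difference of -2.71 ± 0.17. KCNN4 and KCNK1, an activated and a leak potassium channel, rose from 72.3 and 77.4 to 184 and 167 CPM and from 58.8 and 61.4 to 130 and 138 CPM. Of 95 G protein-coupled receptors picked by symbol, 2 rose and 12 fell, with a median of -0.49. GPRC5B fell from 35.05 and 30.8 to 8.86 and 8.55 CPM, and ADGRE5, the leukocyte antigen CD97, rose from 72.6 and 76.3 to 138 and 123 CPM.

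Of 14 S100 genes, which encode small calcium-binding proteins, 5 rose and none fell, with a median of 0.54, and 12 had both shCBX8-2 libraries above both controls, beside 2.92% and 25.9% over all genes tested for a rise and for no overlap. S100P rose from 2.49 and 2.34 to 9.98 and 8.74 CPM, a log2 difference of 1.95 ± 0.18, and S100A16, S100A11, S100A10 and S100A6 were the others. Of 8 aquaporins, AQP3 rose from 33.3 and 39.8 to 127 and 112 CPM and AQP1 rose from 1.39 and 1.75 to 6.06 and 8.01 CPM. Of 40 kinesins, 7 rose and 5 fell. KIF20A and KIF23, motors of cytokinesis, rose from 58.9 and 60.8 to 95.02 and 97.8 CPM and from 128 and 124 to 189.8 and 223 CPM, while KIF3C, KIF21B and KIF26A fell (log2 differences of -0.69, -1.24 and -1.09). Of 299 LINC genes none rose and only LINC-PINT fell, from 14.6 and 13.1 to 6.58 and 7.75 CPM. The LINC median was -0.30, with 134 genes below both controls in both shCBX8-2 libraries and 40 above. Of 425 ZNF genes 1 rose and 4 fell, with a median of -0.16, and 151 lay below and 55 above. Over all genes tested 2.92% rose and 3.07% fell, and 32.8% lay below and 25.9% above both controls.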
